A study of Mus musculus with 4 samples.

Results

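Interferon-stimulated genes were followed through single-cell RNA-Seq libraries of mouse fracture callus and trabecular bone, with and without glucocorticoid (GC). The list named 31 genes, and the members were the rows of the deposited gene tables whose symbol was on it. Of the 31, 30 were found among 32285 genes, and Mx1, an antiviral GTPase, had no row. The list was divided into core members, best known as targets of type I interferon (19 found), and 11 broad members that many cells also transcribe without interferon (Isg20, Irf9, Stat2, Bst2, Ifitm3, Ifi27l2a, Parp14, Trim30a, Ifi204, Gbp2 and Samhd1). The 4 libraries were 1 each of callus control, callus GC, trabecular control and trabecular GC. All came from male C57BL/6J mice that were 20 weeks old at the start, and tissue was taken at week 2. The labels of all 4 libraries describe a slow-release pellet under the skin that delivered prednisolone, a synthetic GC, at 6.25 mg/kg/d, or a placebo pellet. For the fracture model the study's text describes daily injection at the same dose, so the route in callus is uncertain. The number of mice behind each library was not given in the sources used here. With 1 library in each group, no difference between GC and control has a replicate check. Intervals cover counting error only, and no p-value is given.

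Type I interferons bind the receptor formed by IFNAR1 and IFNAR2, which activates the kinases JAK1 and TYK2. These phosphorylate STAT2, which enters a complex with IRF9 that is called ISGF3. This complex enters the nucleus and binds the interferon-stimulated response element (ISRE) in the promoters of target genes. The products restrict viruses by sequestering or cutting RNA (the Ifit and Oas families), by depleting nucleotides (Samhd1), by blocking entry or release at membranes (Ifitm3, Bst2) and by tagging proteins with the ubiquitin-like ISG15. Others sense foreign nucleic acids or renew the response, among them Ifih1, Dhx58, Zbp1 and Irf7. Monocytes, neutrophils and plasmacytoid dendritic cells of the bone marrow are known to respond to or produce interferon, and GCs are known to dampen many inflammatory gene programs.

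The promoters of 5 core members are shown because they hold matches to the element that ISGF3 binds and because these genes recur in the results. Each line gives the 120 bases before the transcription start on the gene's own strand, 5′ to 3′, from RefSeq on build GRCm38.p6. Capitals mark matches to the ISRE core GAAANNGAA on either strand, which reads TTCNNTTTC when it lies on the opposite strand, and overlapping matches are merged. Isg15 lies at chr4:156200819-156200938 (- strand), Oas3 at chr5:120777660-120777779 (- strand), Oas1a at chr5:120907526-120907645 (- strand), Ifit1 at chr19:34640769-34640888 (+ strand) and Rsad2 at chr12:26456453-26456572 (- strand).
Isg15: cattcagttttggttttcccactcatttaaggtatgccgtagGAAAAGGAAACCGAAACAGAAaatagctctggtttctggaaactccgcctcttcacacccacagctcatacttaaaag
Oas3: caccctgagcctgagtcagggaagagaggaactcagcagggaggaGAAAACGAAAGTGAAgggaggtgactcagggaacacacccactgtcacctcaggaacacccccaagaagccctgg
Oas1a: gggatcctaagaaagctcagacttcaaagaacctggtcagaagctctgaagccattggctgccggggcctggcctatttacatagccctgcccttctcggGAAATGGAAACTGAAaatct
Ifit1: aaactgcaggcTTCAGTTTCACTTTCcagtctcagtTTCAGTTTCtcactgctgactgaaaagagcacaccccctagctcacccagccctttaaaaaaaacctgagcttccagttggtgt
Rsad2: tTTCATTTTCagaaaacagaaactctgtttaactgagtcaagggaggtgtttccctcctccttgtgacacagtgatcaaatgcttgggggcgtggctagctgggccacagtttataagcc

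Isg15 and Ifit1 held 3 matches each, Oas3 and Oas1a 2 each, and Rsad2 held 1. A window of 300 bases, from 250 before to 50 after the start, was available for 22 members. Of these, 13 held the motif in at least 1 window, which is 59.1%, against 9.76% of 27025 genes in all. Of the 32851 windows of all genes, 8.56% held the motif and 0.624% held at least 2 copies, whereas 8 of the 22 members held at least 2. Ifit3 (3 matches), Bst2, Ifih1 and Ifitm3 (2 each), and Gbp2, Ifi44, Stat2 and Trim30a (1 each) were the other members with a match. No match was found in the windows of Cmpk2, Ifit2, Irf7, Irf9, Isg20, Oasl1, Oasl2, Samhd1 or Xaf1, which says only that these letters are not there. Dhx58, Ifi204, Ifi27l2a, Oas2, Parp14, Rtp4, Usp18 and Zbp1 had no window. A match is a description of sequence and not evidence of binding.

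The libraries held 95852254 (callus control), 64388215 (callus GC), 41239842 (trabecular control) and 45876714 (trabecular GC) unique molecular identifiers (UMIs), each of which counts 1 captured RNA molecule. After filtering, 6714, 6890, 3832 and 4604 cells were kept in the same order, and any pair of libraries shared 5 to 10 cell barcodes. The callus GC matrix lists only 7762 barcodes and was taken as already called, whereas cells of the other 3 were called from all barcodes, so callus cells were not selected in the same way in both libraries. Cells were grouped by clustering and named from marker genes, which may differ from the study's own classes. Trabecular libraries were mostly neutrophils (2523 of 3832 control cells and 3133 of 4604 GC cells), with erythroid cells (327 and 561), monocytes (276 and 287), granulocyte-monocyte progenitors or promyelocytes (203 and 268) and B cells (317 and 16). No trabecular cluster was named as osteoblasts, osteoclasts or macrophages. A cluster of 13 control and 36 GC cells, named skeletal progenitor or stromal, had the osteoblast marker Col1a1 among its top genes. Callus held chondrocytes (1981 and 2026), neutrophils (1720 and 1395), B cells (632 and 392), monocytes (607 and 596), hypertrophic chondrocytes (468 and 583), osteoblasts or osteocytes (211 and 302), osteoclasts (113 and 119) and macrophages (76 and 72), among others. Another 3 callus clusters, with 113 control and 463 GC cells, were left unnamed.

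Levels were computed by summing UMIs over the cells of a class and scaling to counts per 1000000 UMIs of that class (CPM). A gene was called lower or higher when GC and control differed at least 1.5-fold after 5 CPM was added to each, among genes with at least 50 UMIs over both libraries. Log2 ratios are of GC over control on this scale. The CPM values and the ratios with intervals carry no added CPM. Intervals on CPM and on ratios treat UMIs as independent and do not cover variation between cells.

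The members differed in the cell class where each was highest. In trabecular control, 25 members had enough UMIs in their highest class, a lower minimum than the 50 over both libraries used for calls. Among classes with enough cells in both libraries, 14 were highest in monocytes, 5 in erythroid cells, 5 in neutrophils and 1 in hematopoietic stem or progenitor cells. The interval cleared that of the second class for Dhx58, Ifi204, Ifi27l2a, Ifitm3, Samhd1 and Trim30a (monocytes) and Isg15, Isg20 and Rsad2 (erythroid cells). For the rest the intervals overlapped, among them all neutrophil members. The stem or progenitor member was Bst2, and plasmacytoid dendritic cells, where it was higher, had too few GC cells to be included. Rsad2, which encodes viperin, an enzyme that makes a chain-terminating nucleotide, stood at 298 CPM in trabecular control erythroid cells and 233 CPM in the GC cells. In callus erythroid cells it stood at 636 CPM in control and 663 CPM in GC. The next class reached 38.0 CPM in trabecular control and 92.5 CPM in callus control, and its interval did not overlap that of erythroid cells in any library. Isg20, a 3′ to 5′ exonuclease, had the same erythroid peak, at 406 and 411 CPM in trabecular control and GC and at 314 and 467 CPM in callus control and GC. Isg15 stood at 102 and 84.9 CPM in trabecular erythroid cells, where neutrophils came next in control at 26.5 CPM. In callus erythroid cells Isg15 stood at 114 CPM in control and 67.6 CPM in GC, the latter from 10 UMIs.

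Ifitm3, which blocks fusion of viruses with endosomal membranes, was highest in monocytes in all 4 libraries, at 1733 and 1272 CPM in trabecular control and GC and 2223 and 1331 CPM in callus control and GC. The second class was the neutrophil in trabecular bone (1232 and 1016 CPM) and the endothelial cell in callus (839 and 955 CPM). Ifi27l2a, a small mitochondrial protein gene, and Ifi204, a sensor of DNA of the p200 family, were also highest in monocytes of all 4 libraries, although in trabecular GC the interval of Ifi27l2a in monocytes (113 to 134 CPM) overlapped that in T cells (102 CPM, 85.3 to 121). Bst2, or tetherin, which holds budding virions at the cell surface, stood apart in plasmacytoid dendritic cells, at 2358 CPM in trabecular control and 1344 CPM in callus control, although only 31 and 53 such cells were kept and 6 and 12 in GC. Oasl1, a repressor of Irf7 translation, was highest in callus macrophages (149 CPM in control and 79.9 CPM in GC), although in GC the interval of monocytes overlapped. Ifit3, which joins other Ifit proteins on viral RNA, was highest in callus hypertrophic chondrocytes, at 45.3 CPM in control and 26.7 CPM in GC, although the interval of macrophages overlapped in both libraries. Gene-to-gene differences in CPM were not compared, since capture differs between genes. Ifit1, Ifit3, Oas1a, Trim30a, Ifi204, Ifi27l2a and Gbp2 have near-identical paralogs that could share reads, and their values are uncertain in that respect.

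**Figure D1:**
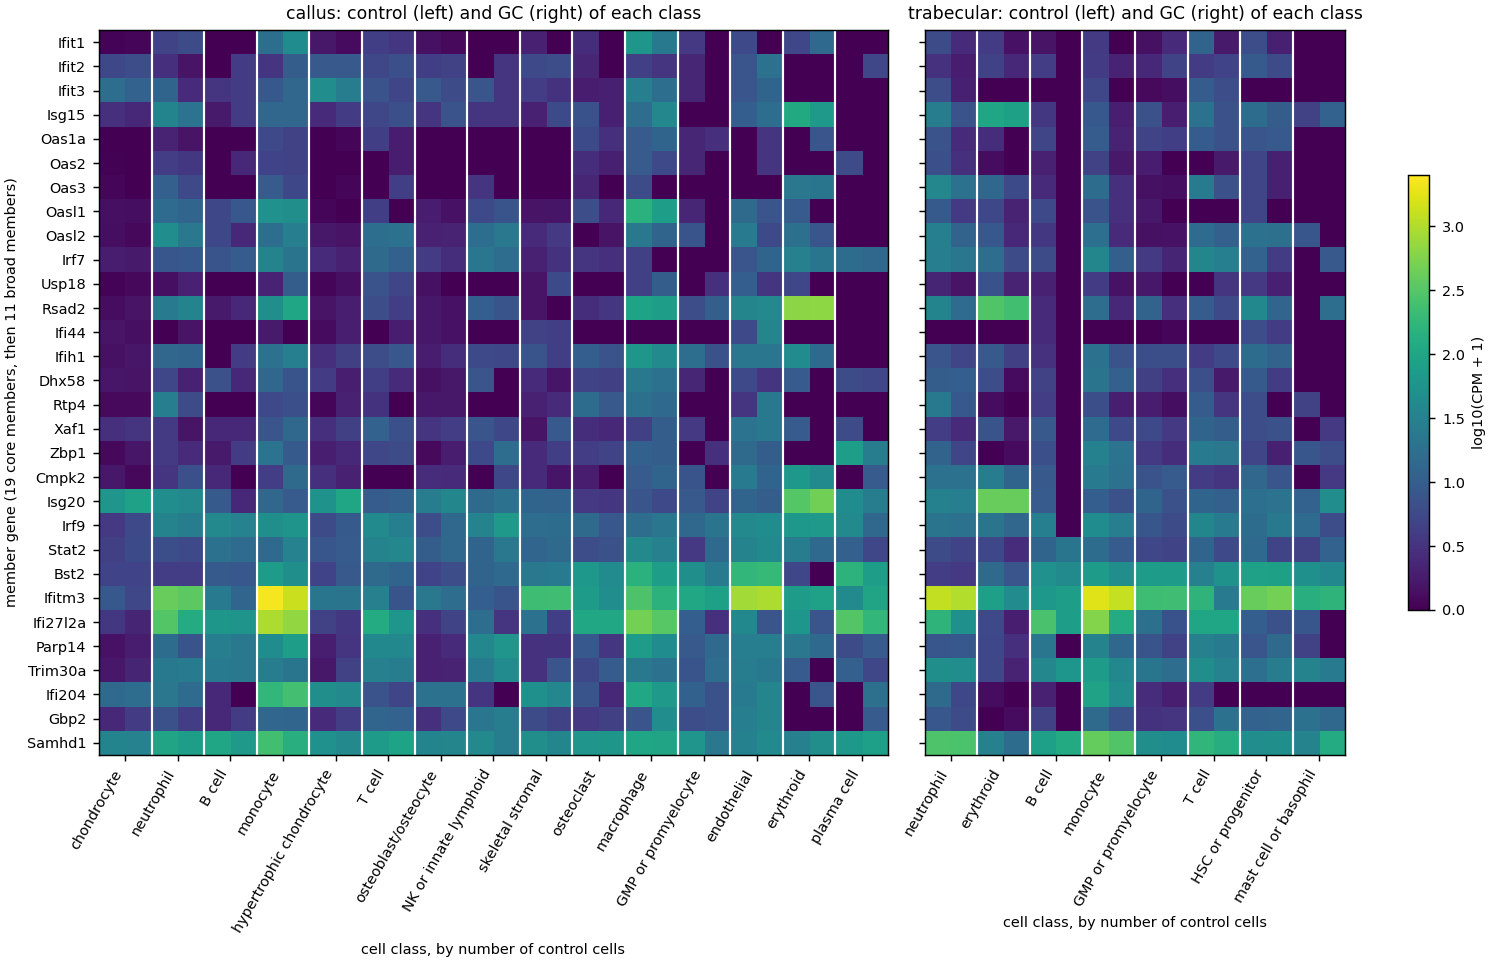
Levels of the 30 members as log10(CPM + 1) by cell class (columns, control left and GC right) in callus and trabecular bone, with 19 core members above 11 broad members. Rsad2 and Isg20 are brightest in erythroid cells, and Ifitm3 and Ifi27l2a in monocytes.

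Over all trabecular cells the members were lower in GC than in control. Of the 29 with enough UMIs, 9 were at least 1.5-fold lower and 0 higher, where 1.83% of all 12158 genes were lower and 1.51% higher. The members' median log2 ratio was -0.51, beside -0.02 over all genes. The 3 lowest ratios were those of Ifi27l2a (182 CPM in control and 46.2 CPM in GC), Oasl2, a relative of the oligoadenylate synthetases (18.6 and 6.82 CPM), and Rtp4, a chaperone of surface receptors (13.3 and 4.21 CPM). The highest were Isg20 (61.0 and 63.8 CPM), Cmpk2, a nucleotide kinase encoded next to Rsad2 (16.5 and 14.1 CPM), and Ifit2 (2.49 and 1.79 CPM). Both rankings use ratios with 5 CPM added, which draws genes as low as Ifit2 toward equality. The 19 core members summed to 233 CPM in control and 125 CPM in GC, a ratio of 0.54 (95% interval 0.52 to 0.56). Such a sum over all cells cannot separate fewer cells of a class from less RNA per cell, and B cells made up 8.27% of control and 0.348% of GC cells, so the same members were read within classes.

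**Figure D2:**
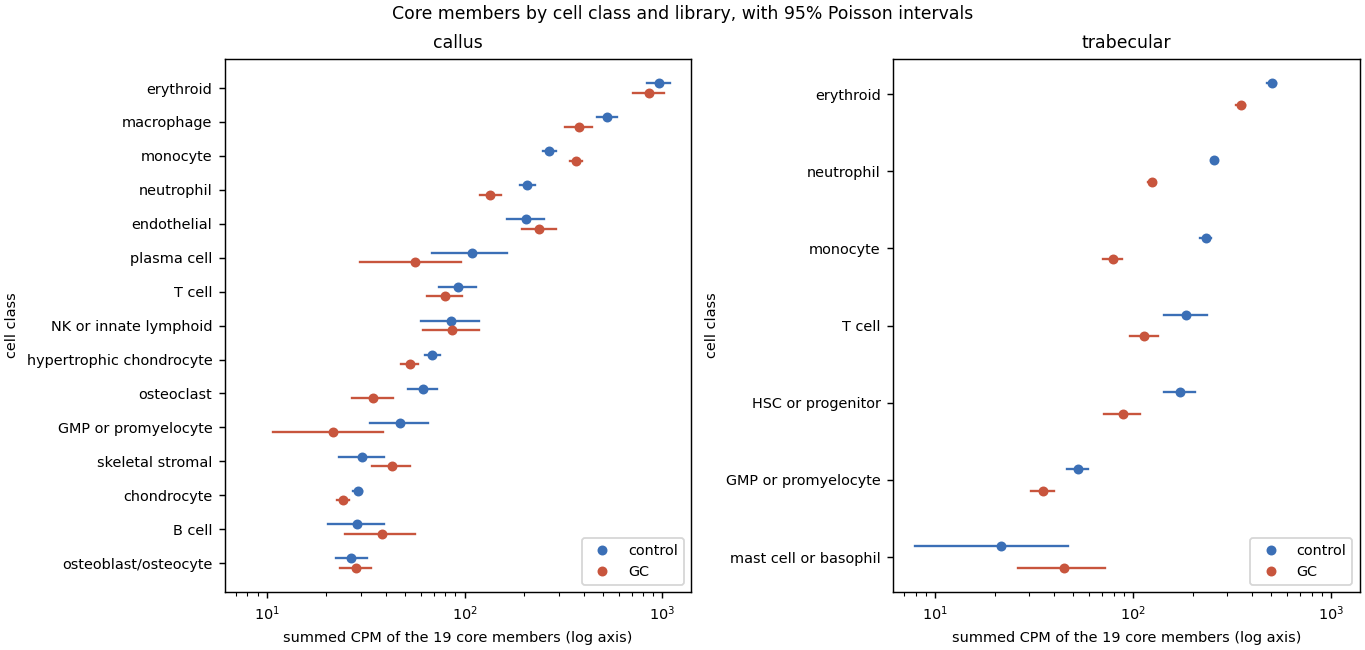
Summed CPM of the 19 core members (log axis) by cell class for control and GC, points with 95% Poisson intervals, in callus and trabecular bone. In trabecular bone the GC point lies below control in monocytes, neutrophils and erythroid cells, while in callus monocytes it lies above.

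In trabecular monocytes most measured members were lower in GC. Of 20 members with enough UMIs, 12 were lower in GC and 0 higher, against 1.97% of 8487 genes lower and 1.56% higher. The median log2 ratio of the members was -0.80, beside -0.01 over all genes. The core members summed to 233 CPM (219 to 248) in control and 79.0 CPM (70.9 to 87.9) in GC, a ratio of 0.34 (0.30 to 0.38). The 11 broad members summed to 3065 and 1890 CPM, a ratio of 0.62. Monocytes of both libraries were of like depth, with a median of 12271 UMIs per cell in control and 11671 in GC.

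The OAS family and the Ifit family were rarely counted in GC monocytes. Oasl2 stood at 16.4 CPM in control and 1.63 CPM in GC, a ratio of 0.0991 (0.0384 to 0.215). Oas3, which makes the oligoadenylates that activate RNase L, stood at 15 and 1.86 CPM, a ratio of 0.12 (0.0513 to 0.259). Oas1a, with 38 and 5 UMIs and so below the minimum for a call, stood at 8.91 and 1.16 CPM. Ifit3 and Ifit1, which bind viral RNA ends, were counted 18 and 12 times in control and 0 times in GC. With the GC count set to a floor of 3, Ifit3 was 6.05-fold lower and Ifit1 4.03-fold lower. These folds leave out the counting error of control and are not lower bounds.

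Among other effectors, Rsad2 stood at 15.2 CPM in control and 1.39 CPM in GC, a ratio of 0.0915 (0.0324 to 0.21). Isg15, at 7.74 and 0.93 CPM from 33 and 4 UMIs, had a ratio of 0.12 (0.0309 to 0.338), and Usp18, the protease that removes ISG15 from proteins, had 13 and 2 UMIs. Cmpk2, which lies beside Rsad2 on chromosome 12 and is transcribed from the opposite strand, stood at 24.6 and 17.4 CPM and was not past the fold. The dNTP hydrolase Samhd1 (393 and 303 CPM), Ifitm3 (1733 and 1272 CPM), Bst2 (71.5 and 47.4 CPM) and Isg20 (9.38 and 6.04 CPM) were not past it either. These 5 effectors had log2 ratios between -0.55 and -0.37, beside -1.66 for Rsad2.

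Of the factors and sensors in trabecular monocytes, 4 of 7 were lower. Irf7, the factor that drives interferon-alpha genes, stood at 35.2 CPM in control and 9.76 CPM in GC, a ratio of 0.28 (0.19 to 0.39). The RNA sensor Ifih1 (MDA5) stood at 17.8 and 6.51 CPM and its relative Dhx58 (LGP2) at 19.2 and 10.0 CPM. Ifi204 stood at 91.0 and 44.9 CPM. The ISGF3 subunits Stat2 (15 and 8.37 CPM, log2 ratio -0.58) and Irf9 (43.6 and 27.9 CPM, log2 ratio -0.56) and the Z-nucleic acid sensor Zbp1 (29.8 and 18.6 CPM, log2 ratio -0.56) lay just short of the fold.

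Of the remaining members, Ifi27l2a had the lowest log2 ratio on the scale with 5 CPM added. Ifi27l2a (chr12:103442167-103443680, minus strand, GRCm38) stood at 588 CPM (565 to 612) in control monocytes and 123 CPM (113 to 134) in GC monocytes, a ratio of 0.21 (0.19 to 0.23) and a log2 ratio of -2.21. The ADP-ribosyltransferase Parp14 (32.4 and 13 CPM), the apoptosis-related Xaf1 (14.3 and 4.65 CPM), the ubiquitin ligase Trim30a (75 and 38.1 CPM) and the guanylate-binding protein Gbp2 (13.8 and 6.51 CPM) were lower as well. RNA outside cells also differed, since the profile of near-empty barcodes held Ifi27l2a at 301 CPM in trabecular control and 49.1 CPM in GC, and the core members at 187 and 118 CPM. Trabecular erythroid cells, which came from the same suspensions, held Ifi27l2a at 4.68 and 0.956 CPM.

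**Figure D3:**
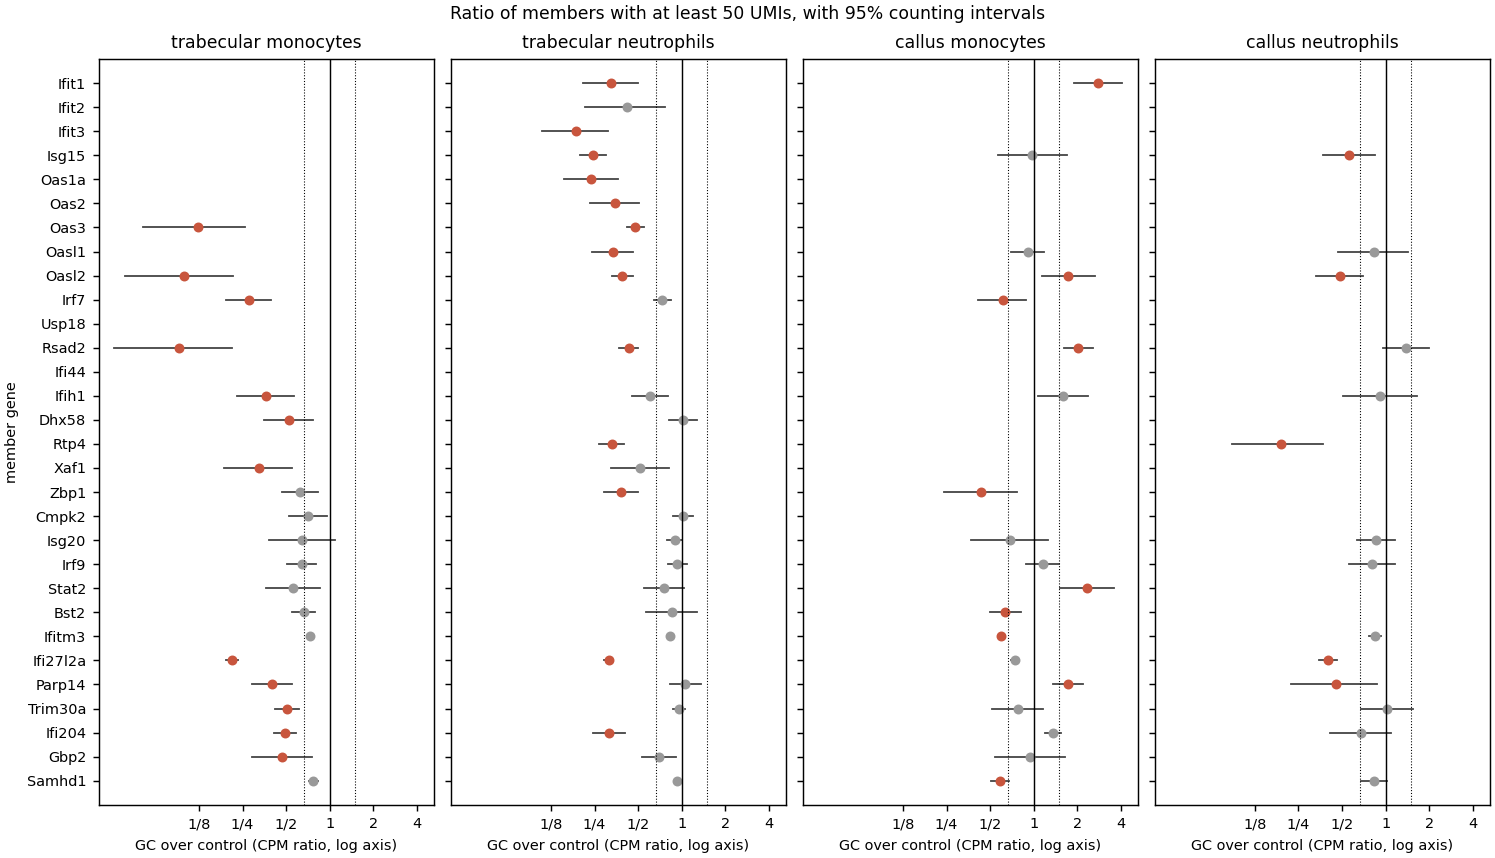
Ratio of GC over control (log axis) for each member with at least 50 UMIs, with 95% counting intervals, in monocytes and neutrophils of both tissues. Dotted lines mark 1.5-fold, red points were called with 5 CPM added and gray points were not, and in trabecular monocytes every point lies to the left of 1.

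The trabecular monocytes formed 2 clusters, and both showed the difference. In the first, with 178 control and 172 GC cells, the core members summed to 364 and 105 CPM, a ratio of 0.29 (0.24 to 0.34), and 14 of 18 members were lower, beside 4.19% of 6305 genes. In the second, with 98 and 115 cells, they summed to 132 and 63.1 CPM, a ratio of 0.48 (0.39 to 0.58), and 7 of 12 members were lower, beside 2.04% of 7401 genes. The median log2 ratio of all genes was -0.04 in the first cluster and 0.00 in the second.

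Single monocytes were also counted by how many core members they carried. In control, 97 of 276 trabecular monocytes (35.1%, 29.5 to 41.1) carried UMIs of at least 3 core members. In GC, 26 of 287 (9.06%, 6.00 to 13) did so. The richest cell carried 16 of the core members in control and 8 in GC, and 6 control cells and 0 GC cells carried at least 10. After each cell was thinned to 1000 UMIs, 23.3% (18.4 to 28.7) of control and 7.32% (4.59 to 11) of GC monocytes kept a core UMI.

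**Figure D4:**
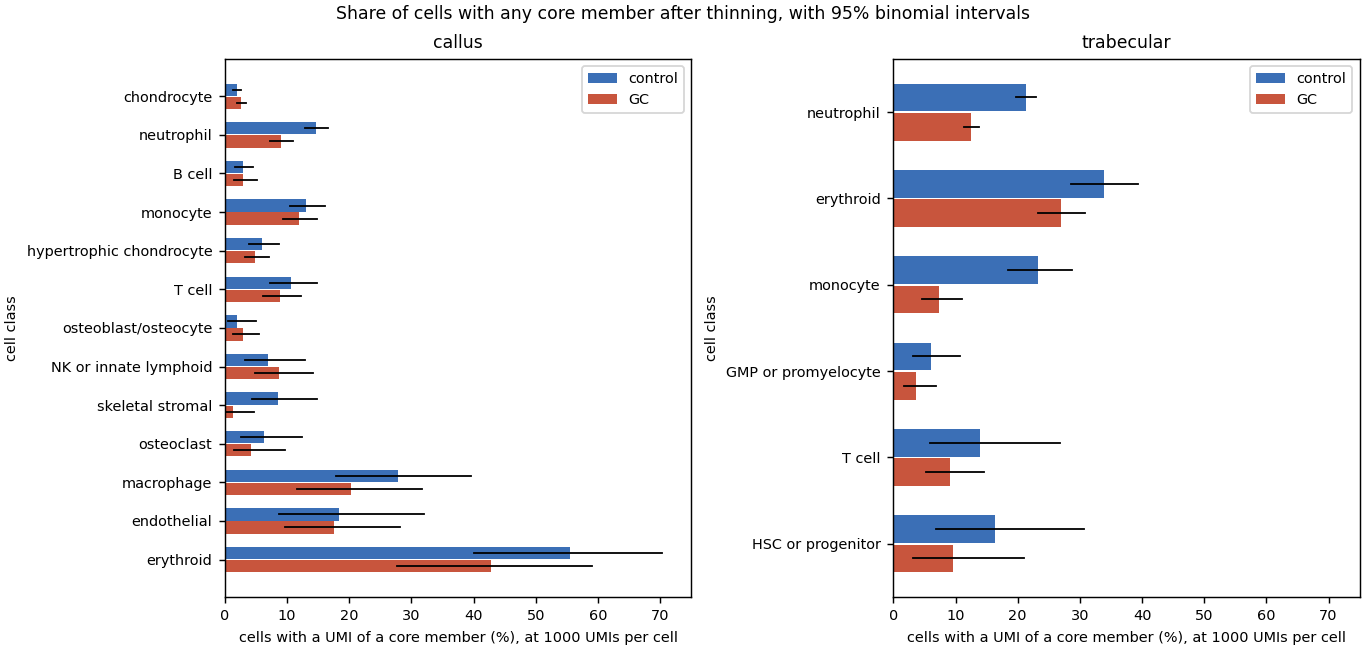
Share of cells with at least 1 UMI of a core member after thinning each cell to 1000 UMIs, by cell class and library, bars with 95% binomial intervals. Control exceeds GC in trabecular monocytes (23.3% and 7.32%) and neutrophils (21.3% and 12.5%), while callus monocytes show 13% and 11.9%.

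Trabecular neutrophils had 13 of 28 members lower in GC and 0 higher, where 1.41% of 9029 genes were lower and 3.32% higher. The members' median log2 ratio was -0.37, beside 0.10 over all genes. The core members summed to 257 CPM in control and 125 CPM in GC, a ratio of 0.49 (0.46 to 0.51). The core and broad members differed in the count, with 11 of 17 core members and 2 of 11 broad members lower.

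The RNA-binding and OAS effectors made up most of the count, with 7 of 8 lower in neutrophils. Oasl2 stood at 28.2 CPM in control and 11 CPM in GC, Oas3 at 36.6 and 17.5 CPM, Oasl1 at 8.16 and 2.74 CPM, Oas1a at 6.41 and 1.53 CPM and Oas2 at 5.74 and 2.00 CPM. Ifit3 (5.35 and 1.0 CPM) and Ifit1 (5.01 and 1.63 CPM) were also lower, whereas Ifit2 (2.03 and 0.843 CPM) did not pass the fold at this low level. All 8 ratios without added CPM had intervals below 1.

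Isg15 stood at 26.5 CPM in control and 6.48 CPM in GC neutrophils, a ratio of 0.24 (0.20 to 0.30). Rsad2 stood at 33.0 and 14.2 CPM, Rtp4 at 23.0 and 7.53 CPM and Ifi27l2a at 161 and 50.2 CPM. The sensors Zbp1 (11 and 4.21 CPM) and Ifi204 (14.1 and 4.42 CPM) were lower. Several members lay near equality, with log2 ratios of 0.05 or less in size for Cmpk2 (17.4 and 17.9 CPM), Parp14 (7.15 and 7.53 CPM) and Dhx58 (9.17 and 9.37 CPM). Trim30a (48.3 and 46.1 CPM), Irf9 (19.2 and 18.0 CPM), Bst2 (3.09 and 2.63 CPM), Samhd1 (293 and 273 CPM) and Isg20 (30.7 and 27.4 CPM) had log2 ratios between -0.14 and -0.06. Of 20 members measured in both trabecular monocytes and neutrophils, 12 were lower in monocytes and 6 in neutrophils, beside 1.97% and 1.41% of all genes. Lower in both were 5, namely Ifi204, Ifi27l2a, Oas3, Oasl2 and Rsad2. The share of all genes lower in both classes was not computed.

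Neutrophils of the 2 trabecular libraries lay mostly in different clusters, which bears on these values. The 3 clusters numbered 1, 3 and 4 held 2001 control and 163 GC neutrophils, whereas the 4 numbered 0, 2, 6 and 8 held 23 and 2619. The clusters differed in Camp, Ngp and Ltf, which encode proteins of secondary granules made in immature neutrophils. In control the core members summed to 579 CPM in cluster 1, where the 3 granule genes summed to 850 CPM, and to 312, 207, 106 and 61.4 CPM in clusters 3, 4, 5 and 10, with granule genes at up to 114584 CPM. In GC the same 5 clusters held 168, 177, 94.5, 51.4 and 39.0 CPM, each below control. The GC values of clusters 1 and 4 rest on 18 and 37 core UMIs from 23 and 64 cells. In these clusters 28% and 18.6% of all genes were lower in GC. Clusters 0, 2, 6 and 8, with most GC neutrophils, held 198, 152, 167 and 112 CPM in GC. Clusters 5 and 10, which hold at least 20% of cells from each library, gave ratios of 0.48 (0.39 to 0.60) and 0.64 (0.50 to 0.80). Over these 2 clusters alone, chosen after the data were seen, 3 of 10 members were lower in GC and 0 higher, beside 1.69% of all genes lower and 1.23% higher.

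**Figure D5:**
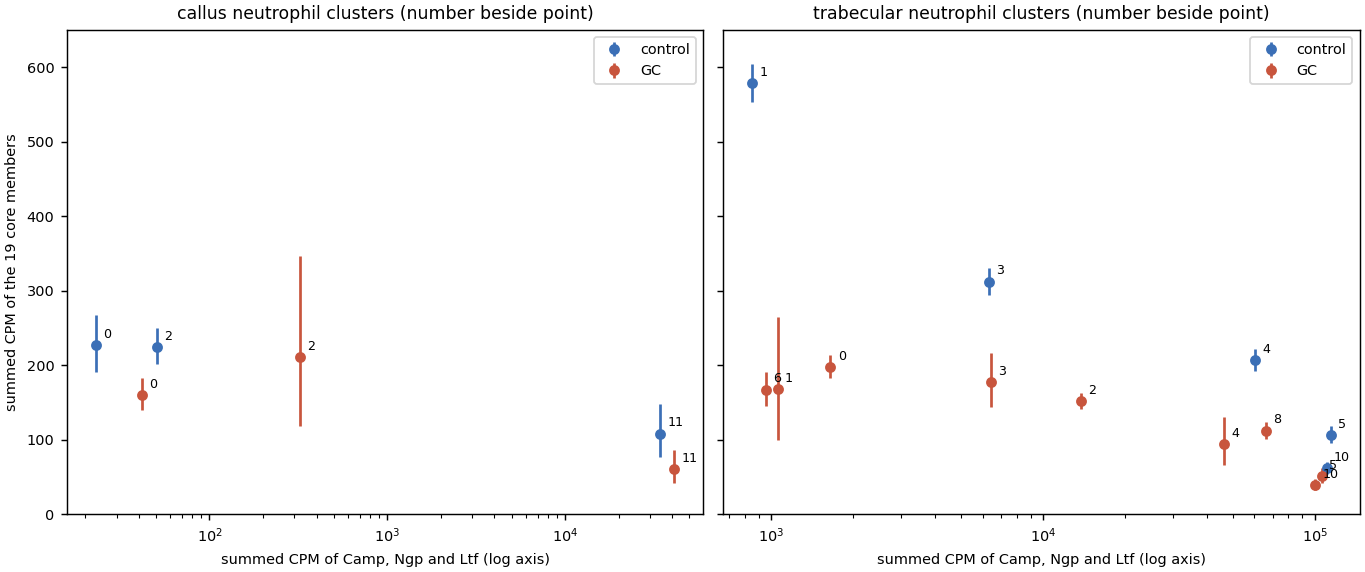
Summed CPM of the 19 core members against summed CPM of the granule genes Camp, Ngp and Ltf (log axis) for each neutrophil cluster and library, with 95% Poisson intervals and the cluster number beside each point. In trabecular bone control points lie above GC points in the 5 shared clusters.

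At the level of single trabecular neutrophils, 368 of 2523 control cells (14.6%, 13.2 to 16) and 147 of 3133 GC cells (4.69%, 3.98 to 5.49) carried at least 3 core members. After thinning to 1000 UMIs, 21.3% (19.7 to 23.0) of control and 12.5% (11.4 to 13.7) of GC neutrophils kept a core UMI.

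Other trabecular classes gave fewer measured members. In erythroid cells 6 of 10 were lower and 0 higher, but 53.1% of all 6090 genes were lower and 0.46% higher there, and the all-gene median of -0.61 was near the members' -0.72. Within the 4 erythroid clusters, where the all-gene medians ran from -0.03 to 0.23, the core members had ratios of 0.80 (0.70 to 0.90), 0.51 (0.46 to 0.57), 0.46 (0.36 to 0.60) and 0.44 (0.30 to 0.63). The highest of these levels was 1805 CPM in control and 922 CPM in GC. In granulocyte-monocyte progenitors or promyelocytes 3 of 11 members were lower and 0 higher, beside 0.984% of genes lower and 1.03% higher. They were Rsad2 (11.2 and 1.90 CPM), Ifi27l2a (17 and 6.18 CPM) and Isg20 (11.7 and 6.02 CPM). The core members also summed to less in hematopoietic stem or progenitor cells (173 and 88.7 CPM, ratio 0.51, 0.39 to 0.68) and in T cells (186 and 114 CPM, ratio 0.61, 0.45 to 0.84), the latter from 52 control cells. The neutrophil granule genes Camp, Ngp and Ltf also differed there. They summed to 3166 and 280 CPM in stem or progenitor cells and to 4446 and 957 CPM in T cells. The part of neutrophil RNA in the core sums and in the T cell values that follow was not tested. In T cells 1 of 5 measured members was lower, Ifitm3 (163 and 23.6 CPM), and 1 was higher, Bst2 (29.1 and 53.2 CPM), where 472 of 3744 genes were lower and 484 higher. The core sum was higher in GC in mast cells or basophils (21.5 and 45.0 CPM, ratio 2.09, 0.79 to 6.48) and in the cluster numbered 20 (150 and 341 CPM, ratio 2.27, 1.09 to 5.20), from 6 and 17 and from 10 and 31 core UMIs. Cluster 20 was named by 6 markers of granulocyte-monocyte progenitors or promyelocytes, but Fabp4, Aqp1, Cd36 and Timp3 led its top genes. Its median depth was 1035 UMIs per cell, so its name is uncertain. Its 41 control and 54 GC cells are counted in the progenitor class above.

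Pooled over all cells, callus did not show this pattern. Of 30 members with enough UMIs, 0 were lower and 0 higher, where 1.52% of 15129 genes were lower and 1.55% higher, and the median log2 ratio was 0.02, the same as over all genes. The count of lower members is limited, because with 5 CPM added a gene very low in control cannot pass the fold at any GC level. Among such members were Ifit1 (1.67 CPM in control), Rtp4 (1.97 CPM) and Zbp1 (1.52 CPM). The core members summed to 59.5 CPM in control and 59.6 CPM in GC, a ratio of 1.0 (0.96 to 1.05). As in trabecular bone, a pooled sum cannot separate the mix of cells from the RNA per cell. Chondrocytes, where core members were low, gave 52407873 of 80016260 UMIs in control and 29799596 of 57218268 in GC. Within classes, given below, the core sum was lower in GC in neutrophils, macrophages, osteoclasts, chondrocytes and hypertrophic chondrocytes and higher in monocytes. Other classes went either way. After thinning to 1000 UMIs, 8.08% (7.42 to 8.79) of control and 6.28% (5.69 to 6.91) of GC callus cells kept a core UMI, and 174 of 6714 control cells (2.59%) and 120 of 6890 GC cells (1.74%) carried at least 3 core members. The 3 lowest ratios were those of Ifit3 (16.3 and 11 CPM), Bst2 (16.2 and 12.8 CPM) and Ifi27l2a (57.2 and 47.2 CPM), and the 3 highest were Isg20 (48.7 and 67.4 CPM), Gbp2 (2.52 and 4.67 CPM) and Irf9 (8.66 and 12.0 CPM). With 1 CPM added in place of 5, Gbp2 passed the fold and was the 1 member to do so.

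Callus monocytes held members of both directions. Their median depth was 4266 UMIs per cell in control and 3794 in GC. Of 19 members measured in callus monocytes, 5 were lower and 5 higher in GC, against 8.65% of 6463 genes lower and 10.3% higher. The members' median log2 ratio was -0.06, beside 0.04 over all genes. The core members summed to 269 CPM (249 to 289) in control and 366 CPM (341 to 392) in GC, a ratio of 1.36 (1.23 to 1.51). In GC, 74.8% of these core UMIs lay in 32 of 596 cells, and in control 57.6% lay in 36 of 607. The interval leaves out this concentration in few cells and is too narrow. The callus monocytes formed 2 clusters. In the first, with 504 control and 492 GC cells, the core sums were 291 and 413 CPM (ratio 1.42, 1.28 to 1.58). In the second, with 103 and 104 cells, they were 80.2 and 45.6 CPM (ratio 0.57, 0.26 to 1.18). There 2 of 4 measured members were lower and 1 was higher, beside 11.48% of 1882 genes lower. Over both clusters together, 5 members were higher in GC. Ifit1 stood at 15.9 and 44.1 CPM (ratio 2.78, 1.91 to 4.10) and Stat2 at 13.6 and 31.5 CPM (ratio 2.32, 1.53 to 3.59). The others were Rsad2 (48.4 and 98.5 CPM, ratio 2.04, 1.63 to 2.56), Parp14 (44.5 and 76.9 CPM) and Oasl2 (15.9 and 27.4 CPM). Below the minimum of 50 UMIs, Cmpk2 had 8 UMIs in control and 31 in GC, and Usp18 had 3 and 20.

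The members lower in GC callus monocytes were Zbp1 (18.6 and 8.10 CPM), Samhd1 (235 and 138 CPM), Ifitm3 (2223 and 1331 CPM), Bst2 (74.7 and 47.7 CPM) and Irf7 (31.7 and 19.3 CPM). Isg15 (12.4 and 12.1 CPM), Oasl1 (51.9 and 47.2 CPM), Gbp2 (12.4 and 11.7 CPM) and Irf9 (48.4 and 55.8 CPM) were near equality, while Ifi204 stood at 178 CPM in control and 244 CPM in GC. At least 3 core members were carried by 36 of 607 control monocytes (5.93%, 4.19 to 8.12) and 32 of 596 GC monocytes (5.37%, 3.70 to 7.50), and the richest cells carried 12 and 17 core members. After thinning, 13% (10.4 to 16) and 11.9% (9.36 to 14.8) of the cells kept a core UMI, so the share of cells did not follow the summed level. Genes induced by tissue dissociation were lower in GC callus monocytes for 9 of 10 measured, where 8.65% of all genes were lower. In trabecular monocytes 1 of 10 was lower, where 1.97% of all genes were. The part of these genes in the members' values was not tested.

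Callus macrophages, 76 in control and 72 in GC, had 5 of 9 measured members lower and 0 higher, where 8.84% of 3145 genes were lower and 11.3% higher. These were Ifitm3 (284 and 151 CPM), Bst2 and Oasl1 (both 149 and 79.9 CPM, each from 87 and 35 UMIs), Parp14 (75.4 and 43.4 CPM) and Ifi204 (108 and 66.2 CPM), and the interval of the Parp14 ratio reached 1.01. The core sum was 524 CPM in control and 377 CPM in GC, a ratio of 0.72 (0.59 to 0.87). In control 81.7% of these core UMIs lay in 19 of the 76 cells, and in GC 75.8% lay in 7 of the 72. As in monocytes, the interval leaves out this concentration and is too narrow. After thinning, 27.8% (17.9 to 39.6) of control and 20.3% (11.6 to 31.7) of GC macrophages kept a core UMI. Over monocytes and macrophages as 1 class, 4 of 22 members were lower and 4 higher, beside 7.51% and 8.35% of 7175 genes.

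In callus neutrophils 5 of 14 members were lower in GC and 0 higher, where 11.9% of 5472 genes were lower and 12.9% higher. Rtp4 stood at 27.4 CPM in control and 5.16 CPM in GC, a ratio of 0.19 (0.086 to 0.37), and Ifi27l2a at 308 and 124 CPM, a ratio of 0.40 (0.35 to 0.46). Oasl2 (44.9 and 21.7 CPM), Parp14 (14.7 and 6.70 CPM) and Isg15 (33.0 and 18.6 CPM) completed the list, while Rsad2 stood at 24.2 and 33.5 CPM. The core members summed to 208 and 135 CPM, a ratio of 0.65 (0.56 to 0.76), and 14.6% (12.8 to 16.5) of control and 8.99% (7.31 to 10.9) of GC neutrophils kept a core UMI after thinning. Here too the libraries divided the clusters, with 1106 control and 55 GC cells in one, where the core ratio was 0.94 (0.52 to 1.57). In the other 2 clusters, with 487 and 1159 cells and with 127 and 181 cells, the core ratio was 0.71 (0.57 to 0.88) and 0.56 (0.34 to 0.92). Restricted to these 2 clusters, chosen after the data were seen, 3 members were lower and 2 higher of 9 measured, beside 8.24% of all genes lower and 14% higher.

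Skeletal classes of the callus held core members at lower CPM than monocytes, macrophages and neutrophils. By count they were not few, since control chondrocytes held 1514 of the 4758 core UMIs of that library. Near-empty barcodes of callus control held core members at 78.0 CPM, above the sums in chondrocytes and osteoclasts. Those barcodes held Ifitm3 at 127 CPM, beside 7.73 CPM in control chondrocytes, its lowest class. They held Isg20 at 42.2 CPM, beside 2.66 CPM in control osteoclasts, its lowest class. The callus GC file lists no such barcodes, and the part of RNA outside cells in the core levels was not tested. Chondrocytes had 0 of 16 members lower or higher, with 2.28% of 13238 genes lower and 1.88% higher, and a core sum of 28.9 CPM in control and 24.4 CPM in GC. Members very low in control could not be called lower here either, such as Parp14 at 0.477 CPM. The chondrocyte clusters differed by library, with 714 control and 275 GC cells in cluster 5, 575 and 184 in cluster 8 and 94 and 12 in cluster 20. Cluster 7 held 36 and 911 cells, at a median depth of 3599 UMIs per cell. The median log2 ratio of the 4 members measured in cluster 7 was 0.56, beside 0.12 over 8286 genes. It was -0.03 in cluster 1 (562 and 644 cells), -0.22 in cluster 5 and 0.22 in cluster 8. The core ratio was 1.04 (0.61 to 1.91) in cluster 7, from 15 control core UMIs. In clusters 1, 5 and 8 it was 0.76 (0.66 to 0.87), 0.78 (0.66 to 0.93) and 0.80 (0.61 to 1.04). In hypertrophic chondrocytes, beside 3.57% of 9910 genes lower and 3.28% higher, Ifit3 was lower (45.3 and 26.7 CPM, ratio 0.59, 0.49 to 0.70) and Isg20 was higher (53.9 and 97.8 CPM, ratio 1.81, 1.61 to 2.05), of 9 members measured. Their core members summed to 68.7 CPM in control and 52.8 CPM in GC, a ratio of 0.77 (0.67 to 0.88). Osteoclasts, which are formed by fusion of monocyte-lineage cells, had 2 of 5 measured members lower and 0 higher, beside 5.5% of 7035 genes lower and 5.12% higher. These were Rtp4 (15.1 and 7.89 CPM) and Ifitm3 (73.6 and 45.8 CPM). Osteoclast core members summed to 61.7 CPM in control and 34.5 CPM in GC, a ratio of 0.56 (0.41 to 0.75). After thinning, 1.89% of control and 2.64% of GC chondrocytes kept a core UMI.

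Across the monocytes of both tissues, 16 members were measured in each. Of these, 9 were lower in trabecular bone, where 1.97% of all genes were lower, and 5 in callus, where 8.65% were, with Irf7 the 1 member lower in both. Oasl2, Parp14 and Rsad2 were lower in trabecular and higher in callus monocytes of GC libraries, where 10.3% of all genes were higher in callus. The shares of all genes lower in both tissues, or lower in trabecular and higher in callus, were not computed. Ifi27l2a had a log2 ratio of -2.21 in trabecular and -0.44 in callus monocytes, and Bst2 had -0.55 and -0.60. The difference between tissues was not tested.

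The wider pathway was read from other lists of genes. No interferon ligand had 50 UMIs in monocytes or neutrophils of either tissue. Over all cells Ifnb1, the gene of interferon beta, had 4 UMIs in trabecular control and 1 in trabecular GC, and 9 in callus control and 22 in callus GC. Of 5 interferon receptor chains measured in trabecular monocytes, 0 were lower or higher, beside 1.97% of all genes lower and 1.56% higher. At these shares a count of 0 of 5 says little. Ifnar1 stood at 63.5 CPM in control and 51.4 CPM in GC and Ifnar2 at 188 and 156 CPM. Among signal transducers, Socs3, a feedback inhibitor of JAK signaling (53.7 and 98.8 CPM), was higher, while Jak1 (141 and 134 CPM) and Tyk2 (45.0 and 38.6 CPM) were neither. Of 9 nucleic acid sensing genes, Ddx58 (RIG-I) was lower at 11.7 and 2.56 CPM, where 1.97% of all genes were lower. Its adaptor Mavs stood at 6.10 and 6.28 CPM.

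Interferon-stimulated genes outside the list had 19 of 39 lower and 0 higher in trabecular monocytes, where 1.97% of all genes were lower and 1.56% higher, with a median log2 ratio of -0.58. Among them, Slfn5 stood at 55.3 CPM in control and 17.2 CPM in GC, Dtx3l, a partner of Parp9, at 38.0 and 18.8 CPM, and the chemokine Cxcl10 at 38.7 and 20.2 CPM. In trabecular neutrophils the count was 4 lower and 2 higher of 36, beside 1.41% and 3.32% of all genes, with Ifitm1 at 948 and 213 CPM and Ly6e at 55.6 and 182 CPM. In callus monocytes 5 were lower and 7 higher of 30, beside 8.65% and 10.3% of all genes, and Cxcl10 stood at 36.4 and 160 CPM there. In trabecular monocytes a list of interferon gamma targets had 1 of 6 lower, which was Gbp2, a gene it shares with the members, and 3 higher. These 3 were the class II genes H2-Aa (84.6 and 312 CPM), H2-Ab1 (68.0 and 258 CPM) and H2-Eb1 (47.6 and 245 CPM).

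Genes known to be induced by GC were read in the same cells. In trabecular monocytes 3 of 9 were higher and 0 lower, beside 1.56% of all genes higher, namely Fkbp5, a chaperone of the GC receptor (23.2 and 83.9 CPM), Tsc22d3, or GILZ (91.0 and 180 CPM), and Klf9 (106 and 166 CPM). In trabecular neutrophils the same 3 were higher, of 10 measured, beside 3.32% of all genes. In callus monocytes 1 of 9 was higher, Fkbp5 (7.74 and 21.1 CPM), and 2 were lower, Per1 (63.1 and 27.0 CPM) and Dusp1 (602 and 358 CPM), while Tsc22d3 stood at 31.0 and 32.8 CPM. With 10.3% of all genes higher and 8.65% lower in callus monocytes, the count of 1 higher was near that share.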

How the data were processed

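Single-cell RNA-Seq was measured in 4 libraries from the 10x Genomics platform, kit v2 from tissue that had been digested with DNase I, dispase II and collagenase II. The deposited matrices hold raw counts, that is UMI counts per gene and barcode, which the authors made with Cell Ranger (version 4 in the file headers, 5.0.1 in the submitters' processing notes, which also name Seurat 3.2.0 and mm10) and did not normalize. The authors' cell labels were not used here. No replicates exist, so counting error sets the precision.

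The GC callus matrix was taken as called. In the others, barcodes above 10% of the 99th percentile of the 3000 largest, or with at least 500 UMIs and a profile unlike barcodes ranked 45001 to 90000 (Monte Carlo multinomial test with 10000 simulations, adjusted p of 0.01), were called. Cells with fewer than 200 genes or over 10% mitochondrial UMIs were dropped. The highest scores against simulated doublets were removed at 0.8% per 1000 cells (405, 428, 125 and 183 cells in callus control, callus GC, trabecular control and trabecular GC). Each tissue was clustered (2000 variable genes without members and other interferon genes, 30 components, 15 neighbors, Leiden resolution 1) without batch correction. A cluster was named by at least 3 markers. Sums were compared as described with the results, with exact Poisson, Clopper-Pearson or conditional intervals at 95%. Classes under 15 cells in a library were not compared.

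All members could be named, and, for each tissue, the 3 highest and 3 lowest ratios over all cells. Genes named from other lists were chosen after their values were seen. The members and lists were chosen with earlier results of these data known. Alternatives changed the added CPM, the UMI minimum, scaling, averaging, thinning, cell filters, doublet removal and clustering. The scripts were tested on simulated data. Python 3.11.15, numpy 2.4.6, scipy 1.17.1, scikit-learn 1.9.0, igraph 0.11.9 and leidenalg 0.10.2 were used.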

Additional observations from a re-analysis of the deposited data

Results flagged for a closer look

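In 3 members the GC library lay below control in trabecular monocytes and above control in callus monocytes, each past 1.5-fold. Of all genes, 1.97% were lower in trabecular monocytes and 10.3% higher in callus monocytes, and the share with both was not computed. The log2 ratio in callus less that in trabecular monocytes was 2.33 for Oasl2 (0.64 and -1.69), 1.78 for Parp14 (0.73 and -1.05) and 2.62 for Rsad2 (0.95 and -1.66). The difference was not tested, since each tissue has 1 library per condition. In callus monocytes the 3 genes rest on 102, 286 and 344 UMIs over both libraries, and in trabecular monocytes on 77, 194 and 71. The callus libraries also differ in how cells were called and, as the study describes it, may differ from the trabecular ones in the route of prednisolone, and neither can be told apart from tissue.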

How the results depend on the processing

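No paired analysis was possible because each group holds 1 library. The median log2 ratio of members stayed below 0 in every alternative run in trabecular monocytes (-0.97 to -0.46), neutrophils (-0.69 to -0.22) and all cells (-0.68 to -0.19), and 0 members were higher there. In callus the median ran from -0.17 to 0.34 over all cells and from -0.38 to 0.31 in monocytes and macrophages. The counts moved as follows. With 1 CPM added in place of 5, 18 members were lower over all trabecular cells and 1 was higher over all callus cells. With 20 CPM added, 1 was lower over all trabecular cells (median -0.19), 6 in trabecular neutrophils, 3 in callus neutrophils, and 2 lower and 1 higher in callus monocytes and macrophages. With a minimum of 20 UMIs, 7 of 29 were higher in callus monocytes and macrophages, beside 8.18% of all genes. With a minimum of 200 UMIs, 3 of 8 were lower in trabecular monocytes, 8 of 19 in trabecular neutrophils and 1 of 3 in callus neutrophils, and in callus monocytes and macrophages 1 was higher and the median was -0.38. With the mean CPM over cells, 4 of 30 were lower over all callus cells, beside 2.24% of all genes. In callus monocytes and macrophages 1 of 22 was higher, beside 9.07%. With cells thinned to 1000 UMIs, 1 of 3 was lower in trabecular monocytes, 7 of 15 in trabecular neutrophils, 2 of 21 over all callus cells, and 1 was lower and 1 higher in callus monocytes and macrophages. Over clusters with at least 20% of cells from each library, an alternative added after the data were seen, 3 were lower in trabecular neutrophils, and 3 lower and 2 higher in callus neutrophils. With only barcodes above the UMI cutoff, 2 callus control neutrophils and 48 control monocytes and macrophages were left, against 1395 and 653 in GC. Over all callus cells 7 of 27 were then higher, beside 6.89% of all genes. In callus monocytes and macrophages 1 of 15 was lower, beside 19.6% of all genes. Of 6 members measured in callus neutrophils, 0 were lower and 5 higher, beside 26.8% and 46.6% of all genes. Their median was 2.78, beside 0.42 over all genes. In that setting Ifitm3 (0.56) and Samhd1 (0.027) in callus monocytes and macrophages and Ifi27l2a (4.69) in callus neutrophils reversed. Fewer genes pass a higher minimum or a thinning by construction, and the other causes were not tested. Depth limits 10 of the 30 members in trabecular monocytes, which fall under 50 UMIs there, among them Isg15, Usp18 and the 3 Ifit genes.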

Other observations

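The genes whose levels followed the summed core members most closely over classes and libraries were Grina (Spearman's rho 0.82), Rmc1 (0.81), Ccrl2 (0.76), Arrb1 (0.74) and Mkrn1 (0.70). These are descriptions over 38 points, each a class of 1 library with at least 50 cells, among 13110 genes. The points share libraries, depth and background RNA. Grina and Ccrl2 were highest in callus neutrophils, Rmc1 and Arrb1 in callus erythroid cells and Mkrn1 in trabecular erythroid cells.

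The endosomal RNA sensor Tlr7 stood at 3.71 CPM in control and 34.1 CPM in GC trabecular neutrophils (ratio interval 7.12 to 12.0), and its relative Tlr8 at 1.58 and 5.63 CPM. In trabecular monocytes Tlr7 stood at 26.5 and 20.9 CPM. These genes were chosen after their values were seen.

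In callus erythroid cells 11 of 49 control cells (22.4%, 11.8 to 36.6) and 2 of 65 GC cells (3.08%, 0.375 to 10.7) carried at least 3 core members, while the core sum was 958 CPM in control and 852 CPM in GC, a ratio of 0.89 (0.71 to 1.11). The median depth was 2472 UMIs per cell in control and 1375 in GC, and its part in the share was not tested. After thinning to 1000 UMIs, 25 of 45 control cells (55.6%) and 18 of 42 GC cells (42.9%) kept a core UMI.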
